A study of Drosophila melanogaster with 8 samples.

Results

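The genes described here encode secreted ligands and receptors of the fibroblast growth factor (FGF) and Alk pathways that link disc epithelium, trachea and myoblasts in the Drosophila wing disc: ths, pyr, bnl, btl, Alk and jeb. They were chosen by name and not by a rule on their measured values, but with earlier results of these data known. Of these 6 genes, 5 matched a count row among 17559 gene IDs, and btl is not analysed here because its current annotated ID matched no row. Its reads may be counted under an earlier ID, so btl is not to be taken as unmeasured in these libraries. RNA-seq was made from whole wing discs of wandering larvae kept at 29 °C, about 5 days after egg lay. The CRISPR group (1151>AntpCRISPR, 4 libraries) carried the 1151 driver and CRISPR directed at the Hox gene Antp, and the wt group (1151 x w1118, 4 libraries) carried the driver without the CRISPR construct. The study asked which genes Antp controls in adult muscle precursors (AMPs), myoblasts that lie on the disc, so each library mixed the targeted cells with epithelium and trachea that the design did not name as targets. In such bulk samples, fewer cells of a type and less RNA per cell cannot be told apart.

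Flies have a small set of FGF ligands. Pyramus (pyr) and Thisbe (ths) activate the receptor Heartless (htl), which myoblasts of the wing disc carry, while Branchless (bnl) activates Breathless (btl) on tracheal cells and guides the air sac branch that grows over the disc. Stumps is the adaptor that carries both receptors' signal into the Ras-MAPK cascade. Jelly belly (jeb) is the secreted ligand of the receptor tyrosine kinase Alk, a pair best known from the embryonic visceral mesoderm and the nervous system.

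The shallowest library, CRISPR 1, held 35076546 reads on genes and the deepest, wt 2, held 47980221. Per the labels, the submitters analysed CRISPR 1, CRISPR 2, wt 2 and wt 3 (here the used libraries) and did not analyse the remaining 4. Since nothing states that replicates were separate animals or cultures, the p-values speak only of how far these 8 samples scatter, and that scatter may be technical. Transcripts on the list of gut enzymes and visceral muscle summed to 745 CPM in CRISPR 3, and to 1423 and 1436 CPM in wt 2 and wt 3, against 0.322 to 5.84 CPM in the other 5 libraries. The sarcomere list summed to 1108 CPM in CRISPR 2, a used library. It summed to 240, 114 and 113 CPM in CRISPR 1, 3 and 4, and to 211 to 361 CPM in wt. The part of sarcomere transcripts in the values below was not tested. In CRISPR 4 and wt 4 longer genes were lower relative to the average library (Spearman's rho across 9057 genes, which are not independent replicates, -0.46 and -0.38), and rho in the remaining 6 was 0.01 to 0.27. The wt 2 and wt 3 libraries were the closest pair, with a chi-square per degree of freedom of 10.6 against 42.3 to 419 in the other 27 pairs. Antp RNA averaged 167 ± 30.3 CPM in CRISPR and 148 ± 32.2 CPM in wt (SD, n = 4 each; log2 change 0.18, edgeR adjusted p = 1.0). All 8 AMP markers and all 6 measured disc epithelium markers were detected well enough to be tested. The AMP markers summed to 1035 to 1110 CPM in CRISPR and 1076 to 1139 CPM in wt, and the epithelium markers to 1199 to 1406 CPM in CRISPR and 1210 to 1431 CPM in wt. In whole discs the RNA of a list need not come from the named cell type alone, so these sums do not measure cell numbers.

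The ligands of Heartless, ths and pyr, had similar levels in both genotypes, bnl was slightly lower in every numbered CRISPR library than in its wt counterpart without passing the test, and Alk was lower by a larger and more variable amount. The jeb ligand was close to undetected in 6 of the 8 libraries. Levels below are read counts scaled to a common library size with TMM factors (CPM), log2 changes are CRISPR over wt, and calls need a p under 0.05 after Benjamini-Hochberg adjustment over all genes tested. Over all 8 libraries, 0 of the 4 members tested were called by edgeR, DESeq2 or limma, where edgeR called 0.184% of 9255 genes. At an unadjusted p under 0.05, edgeR counted 1 of the 4 (Alk), where it counted 4.30% of all genes. In 0 of the 4 did the genotypes fall apart without overlap, where 1.18% of all genes lay lower in every CRISPR library than in every wt library.

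The ths gene (FBgn0033652, 2R 11756817 to 11814424, plus strand, dm6), which encodes an FGF8-like ligand of Heartless, spans 3 smaller genes that share no exon with it. It was measured at 78.1, 83.5, 71.6 and 60.2 CPM in CRISPR 1 to 4, against 73.5, 89.5, 86.4 and 56.0 CPM in wt 1 to 4. The groups overlapped widely, with the library numbered 4 lowest in each genotype. The means were 73.3 ± 10.04 CPM in CRISPR and 76.3 ± 15.2 CPM in wt (SD, n = 4 each), a log2 change of -0.06 (SE 0.17, 95% interval -0.43 to 0.32, edgeR adjusted p = 1.0). The CRISPR library was the lower in 2 of 4 numbered pairs.

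The pyr gene (FBgn0033649, 2R 11712263 to 11726345, plus strand) lies beside ths and encodes the other Heartless ligand. Its level was 23.7, 25.0, 23.0 and 19.3 CPM in CRISPR 1 to 4, against 22.3, 27.3, 27.2 and 23.1 CPM in wt 1 to 4. The groups overlapped, with CRISPR 4 the lowest and wt 2 and wt 3 the highest of the 8. Means were 22.8 ± 2.43 CPM in CRISPR and 25.0 ± 2.64 CPM in wt, a log2 change of -0.13 (SE 0.12, 95% interval -0.40 to 0.13, edgeR adjusted p = 1.0).

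The bnl gene (FBgn0014135, 3R 19794073 to 19836817, minus strand) encodes the ligand of Breathless. It stood at 11.2, 10.3, 9.75 and 9.45 CPM in CRISPR 1 to 4, against 12.4, 11.3, 13.8 and 11.1 CPM in wt 1 to 4, from 358 to 628 reads a library. The groups touched only where CRISPR 1 (11.17 CPM) lay just above wt 4 (11.14 CPM). The CRISPR library was lower in 4 of 4 numbered pairs, by log2 differences of -0.15, -0.13, -0.50 and -0.24. Of all 9255 genes, 7.42% were lower in CRISPR in 4 of 4 pairs, as were 2 of the 4 members tested, bnl and Alk. The means of 10.2 ± 0.756 CPM in CRISPR and 12.2 ± 1.22 CPM in wt gave a log2 change of -0.26 (SE 0.12, 95% interval -0.54 to 0.02, edgeR adjusted p = 1.0).

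**Figure D1:**
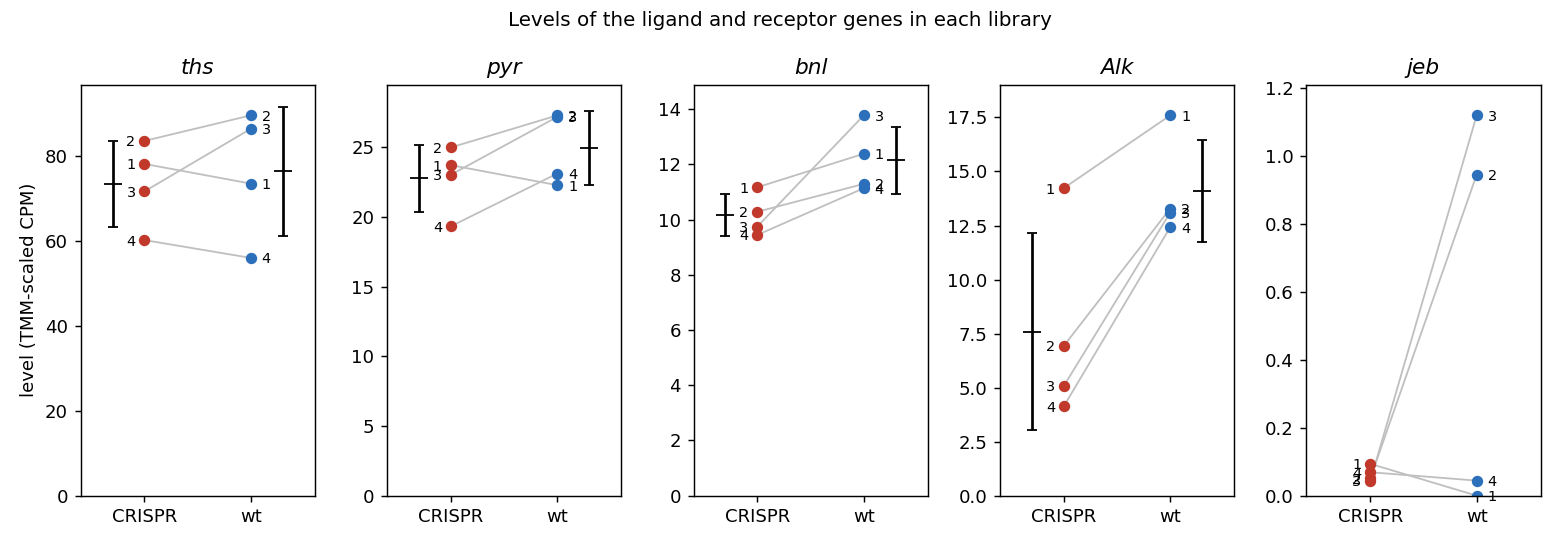
Level of each measured ligand and receptor gene, in TMM-scaled CPM (vertical axes, a scale per gene), in the 4 CRISPR and 4 wt libraries; points are libraries with their numbers, grey lines join libraries of the same number, and black bars are means ± SD (not drawn for jeb, which is near 0 in 6 libraries). Alk is lower in CRISPR in 4 of 4 pairs with CRISPR 1 inside the wt range, and jeb is above 0.9 CPM only in wt 2 and wt 3.

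Alk (FBgn0040505, 2R 16625293 to 16640011, minus strand) encodes a receptor tyrosine kinase, the receptor on this list that was analysed here. Its level was 14.2, 6.93, 5.08 and 4.14 CPM in CRISPR 1 to 4 (456, 273, 236 and 180 reads), against 17.6, 13.3, 13.1 and 12.4 CPM in wt 1 to 4 (706, 661, 597 and 561 reads). CRISPR 2, 3 and 4 all lay below every wt library, while CRISPR 1 lay inside the wt range. The paired log2 differences were -0.31, -0.93, -1.36 and -1.58. The means of 7.60 ± 4.57 CPM in CRISPR and 14.1 ± 2.36 CPM in wt gave a log2 change of -0.90 (SE 0.36, 95% interval -1.70 to -0.09). It ranked 293 of 9255 genes by p in edgeR (adjusted p = 1.0), so the difference did not pass the test. Without CRISPR 1 the log2 change was -1.39 (edgeR adjusted p = 0.0727), and over 17 alternative settings it lay between -1.39 and -0.73 with adjusted p from 0.0727 to 1.0.

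Of the 13 lists besides the members, 2 had summed levels that did not overlap between genotypes, and they are given here for that reason. The 8 neuron and glia markers summed to 61.5 to 72.4 CPM in CRISPR and 73.8 to 88.4 CPM in wt, most of it from elav, a neuronal RNA-binding protein gene (58.2 to 68.7 CPM in CRISPR, 63.3 to 75.5 CPM in wt). The 9 ecdysone and stage genes summed to 1093 to 1236 CPM in CRISPR and 988 to 1056 CPM in wt. Gene by gene, edgeR and limma called 0 of 7 tested neuron and glia genes and 0 of 9 ecdysone and stage genes over the 8 libraries (3 and 1 of them at an unadjusted p under 0.05 in edgeR), DESeq2 called 0 and 1 (Eip75B), and the median log2 changes were -1.74 and 0.08. Their part in the Alk values was not tested. Without the 3 libraries that held gut transcripts (CRISPR 3, wt 2 and wt 3) the Alk log2 change was -0.83, and without the libraries numbered 4 it was -0.78.

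**Figure D2:**
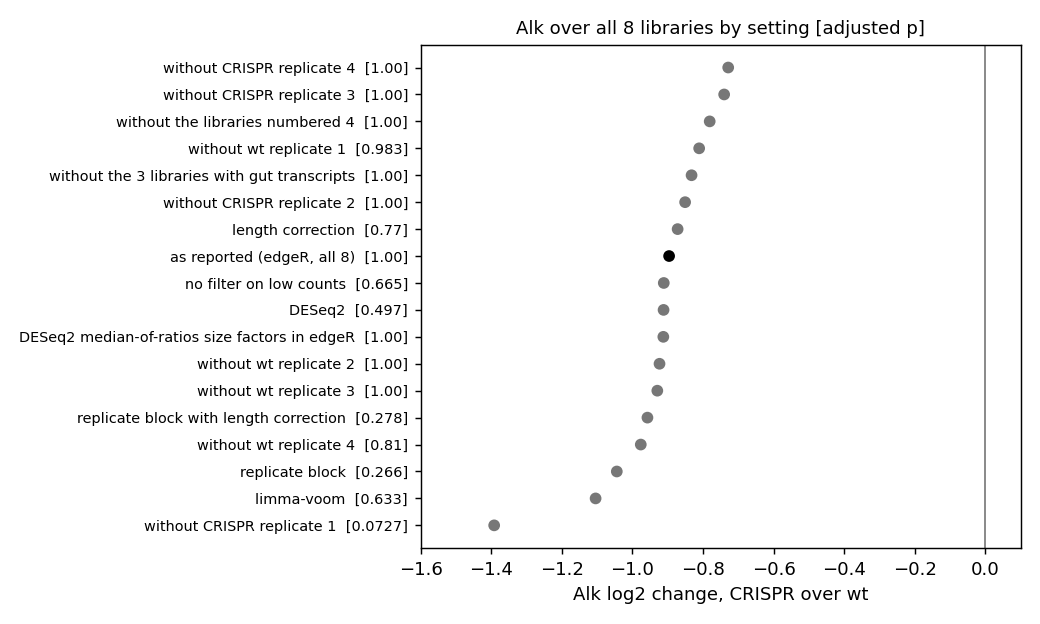
Log2 change of Alk, CRISPR over wt, over all 8 libraries (horizontal axis) as reported (black) and under each alternative setting (grey), with the adjusted p in brackets. All 17 alternatives lie below 0, from -1.39 without CRISPR 1 to -0.73 without CRISPR 4, and none passes 0.05.

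The Alk difference was also set apart by use status. Among the 4 used libraries, in a fit of their own, the log2 change was -0.37 (SE 0.34, edgeR adjusted p = 0.562), and it depended on the CRISPR library kept: -0.94 without CRISPR 1 (adjusted p = 4.5e-17) and 0.05 without CRISPR 2. With 1 CRISPR library left, its spread is taken to be that of wt 2 and wt 3. Among the 4 not-used libraries (CRISPR 3, CRISPR 4, wt 1 and wt 4) the contrast in the 8-library fit was -1.70 (SE 0.36, 95% interval -2.54 to -0.87, edgeR adjusted p = 0.748). The difference between these genotype effects, used minus not used, was 1.38 (SE 0.49, edgeR adjusted p = 0.713). In that interaction test 0 of 4 members were called by edgeR, DESeq2 or limma, and edgeR called 0 of 9255 genes (0%; 611 at an unadjusted p under 0.05).

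For ths, pyr and bnl the log2 changes among used and among not-used libraries were all within 0.30 of 0. The log2 change of ths was -0.16 among used libraries (edgeR adjusted p = 0.294) and 0.03 among not-used ones. For pyr it was -0.20 among used libraries (edgeR adjusted p = 0.278) and -0.10 among not-used ones. The bnl change was -0.26 among used libraries (adjusted p = 0.346) and -0.29 among not-used ones (edgeR adjusted p = 0.937), close to its value over all 8.

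**Figure D3:**
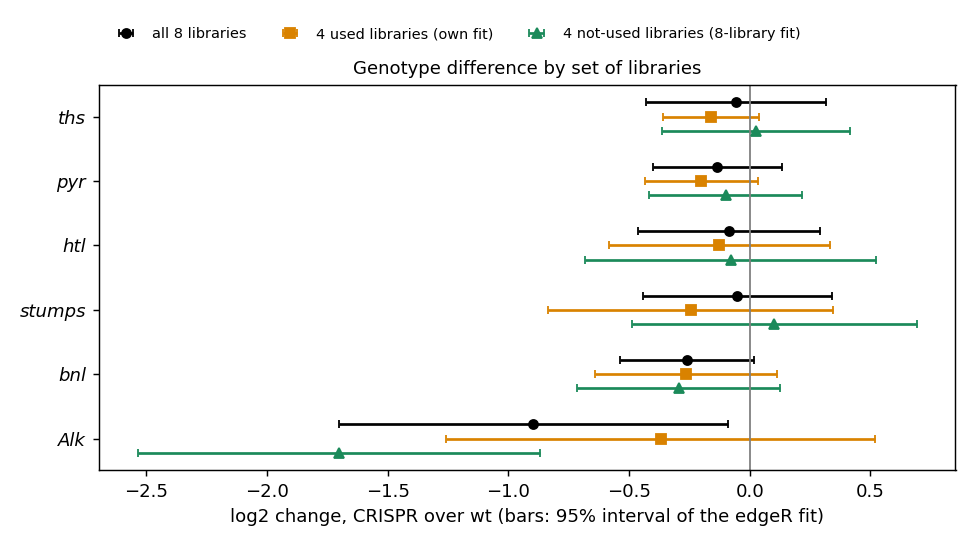
Log2 change, CRISPR over wt (horizontal axis), of 4 members, the receptor gene htl and the adaptor gene stumps in all 8 libraries (black), the 4 used libraries in a fit of their own (orange) and the 4 not-used libraries as a contrast in the 8-library fit (green); bars are 95% intervals. The intervals span 0 except for Alk over all 8 (-1.70 to -0.09) and over the not-used libraries (-2.54 to -0.87), where no adjusted p passed.

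The jeb gene (FBgn0086677, 2R 12085194 to 12119340, minus strand), whose product is the ligand of Alk, had 3, 2, 2 and 3 reads in CRISPR 1 to 4, against 0, 47, 51 and 2 reads in wt 1 to 4. That is 0.0936, 0.0508, 0.0431 and 0.0690 CPM in CRISPR, against 0, 0.945, 1.12 and 0.0443 CPM in wt. Only wt 2 and wt 3 rose above the level of 3 reads, which is 0.0603 to 0.0936 CPM by library, so jeb was not detectable beyond that floor in the other 6. It did not pass the filter on low counts over all 8 libraries.

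Among the used libraries jeb passed that filter only through wt 2 and wt 3, so a gene with this pattern had to differ there. The edgeR log2 change was -3.85 (SE 0.46), and -4.28 to -3.47 with 1 library left out. edgeR, DESeq2 and limma each called jeb, as 1 of 5 members, where edgeR called 2.72% of 9711 genes. Since the filter fixed this outcome, the calls are no support for a genotype difference in jeb. As summed reads, 5 in CRISPR 1 and 2 stood against 98 in wt 2 and 3. Per gene read scaled by the TMM factors, the ratio was 0.0681 (95% counting interval 0.0216 to 0.164). That interval covers counting error only and comes from the same libraries, so it adds no support either. In the not-used libraries 5 reads in CRISPR stood against 2 in wt, a ratio of 2.37 (0.388 to 24.9), and no lower level in CRISPR was detectable there at this depth.

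Some markers of other larval tissue were highest in the libraries where jeb was. The gene brp, which encodes a presynaptic active zone protein, stood at 0.0624, 0.0508, 0.344 and 0.253 CPM in CRISPR 1 to 4, against 0.0498, 2.01, 2.26 and 0.288 CPM in wt 1 to 4. It was thus highest in the same wt 2 and wt 3 libraries. It was singled out after its values were seen, and elav, which makes up most of the neuron and glia list, did not follow jeb: it stood at 58.2, 67.3, 60.0 and 68.7 CPM in CRISPR 1 to 4, against 70.2, 69.6, 63.3 and 75.5 CPM in wt 1 to 4. Among used libraries edgeR called 3 of the 8 genes of that list (Rdl, cpx and brp), where it called 2.72% of 9711 genes. DESeq2 called 5 of the 8, where it called 8.04% of all genes. All 8 had an edgeR log2 change below 0, as had 4786 of the 9711. Among these libraries brp had 2 reads each in CRISPR 1 and CRISPR 2, against 100 in wt 2 and 103 in wt 3. Like jeb, it passed the filter there only through wt 2 and wt 3, so its call was fixed by the filter. Whether this holds for the other called genes was not looked at, and these counts are no support for a genotype difference. The 5 fat body genes summed to 20.7, 37.4, 54.6 and 12.2 CPM in CRISPR 1 to 4, against 34.8, 379, 391 and 23.1 CPM in wt 1 to 4. CRISPR 3 held 745 CPM of gut list transcripts but only 2 jeb reads. Of the visceral mesoderm regulators, bap was at 0 in all 8 libraries and bin had 1 read in all, in CRISPR 3. The part of carried-over tissue in the jeb values was not tested.

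**Figure D4:**
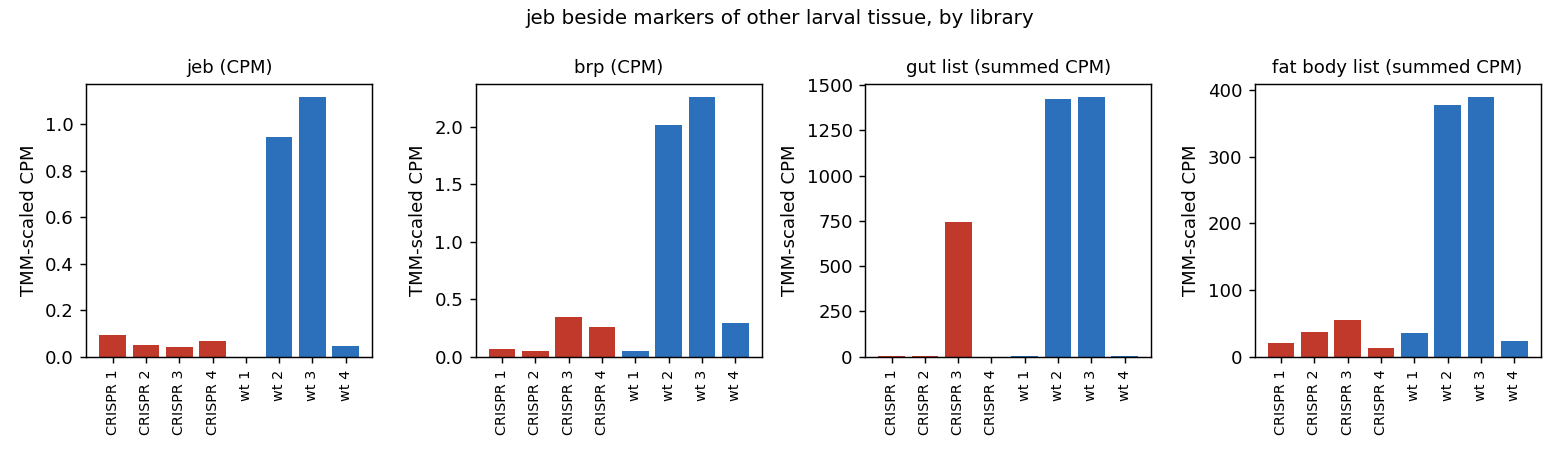
Level of jeb, the neuronal gene brp, the summed gut list and the summed fat body list in each library (vertical axes, TMM-scaled CPM; red CRISPR, blue wt). The tallest bars of all 4 panels are wt 2 and wt 3, and CRISPR 3 has 745 CPM of gut list transcripts with jeb at 0.0431 CPM.

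On a scale that allows genes to be compared, CPM per kilobase of exon averaged over the 8 libraries, the Heartless ligands ths and pyr stood near their receptor. The order was stumps (10.8 ± 1.82), ths (9.28 ± 1.49), htl (9.08 ± 1.51), pyr (7.43 ± 0.818), bnl (2.45 ± 0.311), Alk (1.11 ± 0.498) and jeb (0.0285 ± 0.0441; SD, n = 8). The first 4 overlapped with their neighbours in library values, whereas every pyr value (6.02 or more) lay above every bnl value (3.02 or less), every bnl value (2.07 or more) above every Alk value (1.81 or less), and every Alk value (0.425 or more) above every jeb value (0.108 or less). The ratio of ths to pyr per kilobase was 1.24 to 1.33 in CRISPR and 0.964 (wt 4) to 1.31 in wt.

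**Figure D5:**
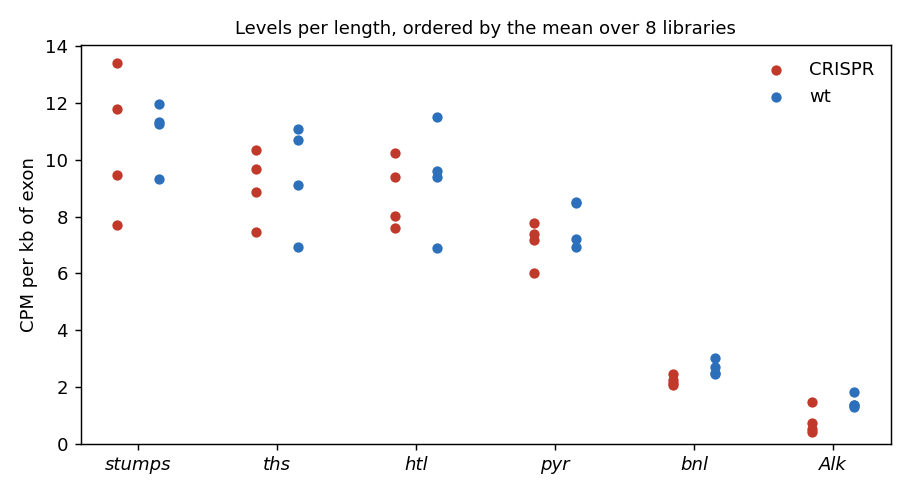
Level per length (CPM per kilobase of exon, vertical axis) of 4 members, htl and stumps in the CRISPR (red) and wt (blue) libraries, ordered by the mean over 8 libraries; each point is a library. The first 4 genes lie between 6.02 and 13.4, and bnl and Alk lie at 3.02 or less.

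The receiving side of ths and pyr was also similar between genotypes. The receptor gene htl had 31.1, 42.0, 38.5 and 32.8 CPM in CRISPR 1 to 4, against 47.1, 38.5, 39.3 and 28.2 CPM in wt 1 to 4, so that the groups overlapped and wt held both the highest and the lowest library. Its log2 change was -0.09 (95% interval -0.46 to 0.29, edgeR adjusted p = 1.0). The adaptor gene stumps had 43.2, 66.0, 75.1 and 52.9 CPM in CRISPR 1 to 4, against 67.0, 63.0, 63.5 and 52.3 CPM in wt 1 to 4. CRISPR 1 was the lowest of all for stumps, and the log2 change over the 8 libraries was -0.05 (edgeR adjusted p = 1.0).

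Downstream of both receptors, 0 of 8 tested Ras-MAPK relay genes were called over the 8 libraries, with a median log2 change of 0.00 (-0.16 to 0.06), beside 0.02 over all 9255 genes. The smallest p on that list belonged to Sos, the guanine exchange factor that activates Ras, at -0.16. The 8 feedback and nuclear output genes had a median of 0.03 (-0.19 to 0.27), with 0 called, and included the Ras GTPase-activating protein gene Nf1 at -0.19. Of the heparan sulfate genes, whose products modify or carry the sugar chains that FGFs bind, 10 were tested and 0 called (median 0.01, -0.23 to 0.10). Hs6st, a sulfotransferase gene, had the smallest p there (log2 change -0.23, edgeR adjusted p = 1.0). In these lists, DESeq2 and limma also called 0, and edgeR counted 0 at an unadjusted p under 0.05.

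Of 6 genes on the list of the Alk pathway and its visceral mesoderm targets, 3 were tested over the 8 libraries, with 0 called (median 0.07, -0.10 to 0.15), kirre, which encodes a myoblast fusion adhesion protein, standing at 0.15. The embryonic target Hand had 0 to 2 reads and org-1 0 to 12 reads a library. The 11 tested genes of the tracheal list had 0 called and a median of 0.04 (-0.06 to 0.23), with the POU factor gene vvl at 0.18. All 12 genes of that list summed to 2074 to 2978 CPM in CRISPR and 2035 to 2929 CPM in wt. Of this, vvl held 504 to 743 CPM in CRISPR and 551 to 572 CPM in wt. In whole discs such RNA need not come from tracheal cells alone, so the list does not measure the cells that respond to bnl. The 8 AMP genes had 0 called and a median of -0.06 (-0.19 to 0.09), with the transmembrane protein gene kon at -0.19. In the Alk target, tracheal and AMP lists, DESeq2 and limma called 0, and edgeR counted 0 at an unadjusted p under 0.05.

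Among the 4 used libraries edgeR called 0 genes of these 6 lists, while 1 relay, 0 feedback, 2 heparan sulfate, 2 Alk target, 4 tracheal and 2 AMP genes had an unadjusted p under 0.05, as had 22.4% of all 9711 genes tested. The Alk target list held mamo, a zinc-finger transcription factor gene (log2 change -0.74, edgeR adjusted p = 0.0718), and CG4577 (-3.15, adjusted p = 0.110). CG4577 had 1 and 8 reads in CRISPR 1 and 2, against 67 and 38 reads in wt 2 and 3. It passed the filter only through wt 2 and wt 3, so its change and any call of it are no support for a genotype difference. The heparan sulfate polymerase gene sotv stood at -0.50 (adjusted p = 0.0906). DESeq2 called mamo, CG4577, sotv and the tracheal cuticle gene Gasp in these lists, where it called 8.04% of all genes, and limma called 0. In that comparison the wt libraries, wt 2 and wt 3, were those with 1423 and 1436 CPM of gut list transcripts, and their part in these values was not tested.

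Members were also compared between replicate numbers. With genotype in the model, the gap between the highest and lowest number was 0.57 on the log2 scale for ths (edgeR adjusted p = 0.0671), 0.30 for pyr (0.290), 0.20 for bnl (0.651) and 1.15 for Alk (0.103). edgeR called 0 of the 4, where it called 12.6% of 9255 genes, and 2 of the 4 (ths and Alk) had an unadjusted p under 0.05, as had 37.7% of all genes. DESeq2 called ths (adjusted p = 0.00121) and Alk (adjusted p = 0.00938), where it called 33.3% of all genes, and limma called 0. With a correction for the length trend, which set the libraries numbered 4 apart, the gap was 0.25 for ths (adjusted p = 0.486) and 0.87 for Alk (adjusted p = 0.202).

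Across the 8 libraries, log2 levels of ths and pyr had a Pearson correlation of 0.79, and bnl and Alk of 0.83, beside 0.43 for ths with bnl, 0.33 for ths with Alk, 0.59 for pyr with bnl and 0.52 for pyr with Alk. These values describe libraries that share depth, length trend and genotype. Of the 9255 genes tested, those most like ths were muskelin, which encodes a kelch-repeat protein (r = 0.991), CG6765 (0.989) and CG3216 (0.984). For pyr they were the cuticle protein gene TwdlV (0.983), the J-domain protein gene jdp (0.982) and lncRNA:CR44955 (0.976). For bnl they were CG10324 (0.914), FBgn0036660 (0.911) and Agxt, an aminotransferase gene (0.908).

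The genes most like Alk were CG3457 (r = 0.971), egr, which encodes the tumour necrosis factor ligand Eiger (0.965), and the ubiquitin ligase gene mura (0.947). The egr gene had 10.1, 6.22, 6.07 and 4.92 CPM in CRISPR 1 to 4, against 11.2, 9.10, 8.10 and 9.97 CPM in wt 1 to 4. As with Alk, CRISPR 1 lay inside the wt range and the other 3 CRISPR libraries below it, which the choice by likeness favours.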

How the data were processed

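The submitters' processing notes name the dm6 build, STAR, DESeq2, FastQC and Trimmomatic 0.36. What the authors deposited is a table of raw counts of reads by gene for each library. Neither the counter nor its strand setting is stated in the labels, and strand affects genes that overlap on opposite strands. The 5 rows that name no gene, among them no-feature (0.955% to 1.91% of reads), ambiguous (3.07% to 3.44%) and not uniquely placed reads (2.22% to 4.40%), were left out of library sizes. Of 17559 gene IDs, 17253 matched a symbol and an exon length in Ensembl's annotation of the same assembly, from which coordinates come.

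Counts were fitted with edgeR 4.0.16 (R 4.3.3): TMM, filterByExpr (minimum count 10, total 15) and the two-sided quasi-likelihood test, with Benjamini-Hochberg adjustment over all genes tested. Fits covered genotype over 8 libraries, genotype over the 4 used libraries, genotype by use status, and replicate number beside genotype. DESeq2 1.42.0 and limma 3.58.1 were alternatives. Figures used Python 3.11.15 and matplotlib 3.10.9. Counts simulated from the libraries with 100 genes changed by a log2 of 1 gave 100% recovery over 8 libraries (9255 genes), 86% over the 4 used (9711 genes), 52% for the use-status interaction (9255 genes) and 97% for replicate number (9255 genes). The biological coefficient of variation was 30.3% over 8 libraries, 15.3% over the 4 used, 24.1% for the interaction and 18.6% for replicate number. The simulation used a smaller spread than any of these and changed only genes well above the count filter. Recovery in the real libraries can thus be lower, also for a change the size of that in Alk. The edgeR intervals include the scatter between libraries. Floors (3 counts) and the jeb interval cover counting error only, and PCR copies were not separated. The jeb interval is an exact binomial one at 95% confidence.

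Members and lists were chosen with earlier results of these data known. Named genes are the members, Antp, htl, stumps, up to 3 tested genes per list with the smallest p, and the 3 genes most correlated with each member. The elav, brp, Hand, org-1, bap and bin levels and the genes DESeq2 called were added after their values were seen. Of 110 list entries, 102 had a count row. Deviations from group means of same-numbered libraries correlated at 0.45, 0.15, 0.44 and 0.74 for numbers 1 to 4, each above 0.1, so the numbers were taken as pairs, from the data rather than the labels. Other numbers matched as well or better for CRISPR 3 (0.445 with wt 2, 0.444 with its own) and CRISPR 2 (0.29 with wt 1 and 0.17 with wt 3).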

Additional observations from a re-analysis of the deposited data

Results flagged for a closer look

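Alk stood at 17.6 CPM in wt 1, apart from the other 3 wt libraries (12.4 to 13.3 CPM), with a gap of 0.834 of the group's range, just above Dixon's 95% critical value. The tracheal list gene vvl stood at 572 CPM in wt 1, against 551 to 552 CPM in the other 3 wt libraries. This gap of 0.947 of the range comes from the closeness of those 3. In all, 18 genes in 2 groups each were looked at, and chance flags about 1 group in 20.

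The Alk target list gene mamo had genotype differences in opposite directions by use status, with an interaction of -1.13 on the log2 scale (used minus not used). It had 77.5 and 95.3 CPM in CRISPR 1 and 2, against 143.5 and 137.0 CPM in wt 2 and 3. Among not-used libraries it had 153.9 and 131.0 CPM in CRISPR 3 and 4, against 91.8 and 119.2 CPM in wt 1 and 4. The interaction had an edgeR adjusted p of 0.399, and DESeq2 called it.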

How the results depend on the processing

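Direction and call were kept in 466 of 521 alternative values of named genes, 22 reversed, 12 lost a call and 21 gained one. The reversals are of log2 changes whose intervals span 0. With the replicate block, edgeR called 14 genes over the 8 libraries instead of 17, and Alk stood at -1.04 (adjusted p = 0.266), bnl at -0.26 (0.602), pyr at -0.13 (0.732) and ths at -0.04 (0.905). With the block and the length correction Alk stood at -0.96 (0.278) and ths turned to 0.028. The block changed no call of a member. No paired analysis was possible among the used libraries because they share only number 2.

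Over all 8 libraries DESeq2 called 78 genes. Leaving out the 3 libraries with gut transcripts, or those numbered 4, both chosen after seeing the data, left 0 called in edgeR (123 and 433 at an unadjusted p under 0.05), and leaving out 1 library gave 1 (without CRISPR 2) to 26 (without CRISPR 1). Among the used libraries the 264 calls became 400 with no filter, 781 in DESeq2, 398 in limma, 4 with the spread of all 8 libraries and 39 (without wt 2) to 5759 (without CRISPR 2) with 1 left out. The use-status interaction gave 67 calls with no filter, 86 in DESeq2 and 0 to 311 (without wt 4) with 1 library left out. Replicate number gave 3078 in DESeq2, 1 with the length correction and 0 (without CRISPR 4) to 1449 with 1 left out. The causes of these shifts were not tested.

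With the length correction ths stood at 0.024 and stumps at 0.0043 over the 8 libraries, and bnl at -0.0026 in the interaction. Without the libraries that held gut transcripts ths stood at 0.19 and kirre at -0.041. With 1 library left out, the log2 change over all 8 lay at -0.20 to 0.027 for ths, -0.22 to 0.0052 for htl, -0.18 to 0.070 for stumps and -0.050 to 0.32 for kirre. Among the used libraries it was -0.94 to 0.053 for Alk, -0.38 to 0.10 for htl and -0.60 to 0.051 for stumps. In the interaction it was -0.22 to 0.075 for pyr, -0.067 to 0.22 for bnl and -0.45 to 0.24 for htl. Depth limits jeb, at 0 to 3 reads in 6 of 8 libraries. For the interaction, 52% of simulated log2 changes of 1 were recovered, at a spread smaller than the measured one. Its 0 calls among members thus say little about changes of that size.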
